A study of Mus musculus with 2 samples.

Results

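Interferon-stimulated genes are the genes that cells switch on in answer to interferons, and 43 of them were listed here by symbol. Rows for 41 of the 43 were in the files, out of 32285 gene identifiers in all, and all 41 held at least 10 UMIs (unique molecular identifiers, each standing for 1 captured transcript) over both libraries; Mx1 and Mx2 were not analysed here. The genes were measured by single-cell RNA sequencing of synovium, the tissue that lines the joint, from the knees of wild-type mice. The control library pooled 20 knees of control mice. The MMS library pooled 20 knees of mice that carry the labels MMS and D14, and the labels spell neither out; age and strain are not known here. Each group is therefore 1 library of pooled knees with no replicate, so no test between the groups was possible, and every interval below is a 95% interval that covers counting error only.

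Interferons bind receptors on the cell surface, and the receptors activate JAK kinases and STAT transcription factors. Type I interferons act mainly through a complex that contains STAT2 and IRF9 and binds the interferon-stimulated response element (ISRE) in promoters, whereas interferon gamma acts mainly through the gamma-activated site (GAS). The products block viral replication, sense foreign RNA, cut proteins for display to T cells and feed back on the pathway, and many are also made at a low basal level in tissue that is not infected.

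The control library held 6891 cells after filtering (median 10990 UMIs) and the MMS library 3765 (median 17444 UMIs). The median MMS cell therefore held more UMIs, and UMIs per cell are called depth below. The libraries shared 6 barcodes, 4 of them among the kept cells. The labels name the cell type Goblet cells, but 0 of 6891 control cells and 0 of 3765 MMS cells had UMIs of 2 or more of 8 goblet cell markers. This allows a share of cells with such UMIs of up to 0.0435% and 0.0797%. How often a goblet cell would show 2 markers was not measured. Cells were grouped without using the listed genes, and groups are called by the type whose markers lead them. Fibroblast-like cells numbered 3215 in control and 1537 in MMS, endothelial-like cells 1961 and 705, macrophage or monocyte-like cells 1077 and 536, and mural-like cells, which wrap small vessels, 145 and 182. Cluster 12, led by Retnla and genes for antigen presentation (Cd74, H2-Aa, H2-Ab1), was given no type and held 335 and 53 cells.

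The promoters of the listed genes held the letters of the response element more often than promoters in general, and a few are shown as examples. The genes shown were lower in MMS in the 4 main classes. So were 36 of the 38 listed genes measured in all 4, so this does not set them apart. RefSeq promoter windows (GRCm38.p6, 250 bases before to 50 after the annotated start) were found for 33 of the 41 genes. The letters GAAANNGAAA, taken as an ISRE on either strand and allowed to overlap one another, were found in 18 of the 33 (54.5%), against 3.99% of 27025 gene symbols with a window of the same length. The letters TTCNNNGAA, taken as a GAS, were found in 8 of the 33 (24.2%), against 9.55% of all symbols. In the sequences below, 5′ to 3′ on the strand of the gene, capitals mark the ISRE letters. The stretch upstream of Isg15 (chr4:156200860-156200911, minus strand) held a run of overlapping matches. Ifit3 (chr19:34583358-34583431, plus strand) and Ifit3b (chr19:34607754-34607827, plus strand) carried the same stretch, base for base, while that of Ifit1 (chr19:34640770-34640828, plus strand) has its 2 matches closer together. Rsad2 (chr12:26456548-26456587, minus strand), Bst2 (chr8:71537572-71537617, minus strand), Gbp2 (chr3:142620589-142620628, plus strand) and Igtp (chr11:58199507-58199546, plus strand) are shown for comparison.
Isg15: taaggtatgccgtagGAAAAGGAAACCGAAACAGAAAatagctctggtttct
Ifit1: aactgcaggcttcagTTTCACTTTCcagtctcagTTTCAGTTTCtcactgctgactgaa
Ifit3: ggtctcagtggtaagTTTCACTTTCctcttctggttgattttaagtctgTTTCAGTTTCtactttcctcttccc
Ifit3b: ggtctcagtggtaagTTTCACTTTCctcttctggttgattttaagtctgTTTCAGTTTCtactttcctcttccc
Rsad2: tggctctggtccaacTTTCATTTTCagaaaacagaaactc
Bst2: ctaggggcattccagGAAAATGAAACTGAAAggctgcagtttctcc
Gbp2: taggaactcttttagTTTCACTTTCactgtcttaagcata
Igtp: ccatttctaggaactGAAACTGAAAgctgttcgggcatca

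Not every listed promoter holds those letters. The window of Lgals3bp, whose ratio was among those nearest to 0 in fibroblast-like cells, had neither motif. Its 250 bases before the start (chr11:118401960-118402209, minus strand) are printed as an example without a match. Lgals3bp was lower in MMS in all 4 main classes too, with log2 ratios from −0.12 in fibroblast-like to −0.71 in macrophage or monocyte-like cells. The windows of Psmb9 and Tap1, which face away from each other, share 275 bases and held neither motif either. A ratio near 0 and a lack of motifs did not always go together. In fibroblast-like cells the ratio of Psmb9 was −1.57, and that of Oas1a, whose window held both motifs, was −0.10. Irf7 and Oasl1, whose windows held neither motif, were at least 2-fold lower in all 4 main classes.
Lgals3bp: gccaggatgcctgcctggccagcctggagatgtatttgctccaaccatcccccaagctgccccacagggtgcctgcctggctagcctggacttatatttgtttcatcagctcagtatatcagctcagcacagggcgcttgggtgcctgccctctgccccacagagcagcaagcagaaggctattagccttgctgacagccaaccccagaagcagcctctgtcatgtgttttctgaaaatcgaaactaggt

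Genes with and without an ISRE match were both lower in MMS than in control, as the ratios below show. In macrophage or monocyte-like cells the median log2 ratio was −1.08 for the 18 genes with a match and −0.39 for 14 genes without one, and in fibroblast-like cells −1.10 for 16 and −1 for 15. For endothelial-like cells the medians were −0.78 for 16 genes with a match and −0.48 for 15 without, and for mural-like cells −1.73 and −1.19. Split by the GAS, the medians with and without a match were −1.02 and −1.08 in fibroblast-like and −1.01 and −0.61 in endothelial-like cells. They were −0.76 and −0.90 in macrophage or monocyte-like and −1.58 and −1.59 in mural-like cells, with 8 genes holding a match in each class. Some of the listed genes are neighbours in the genome. Within 1000000 bases of another listed gene lay 20 of the 41, in 7 groups. Among these are the Ifit genes on chromosome 19, the Oas1, Oas2 and Oas3 genes on chromosome 5 and the Gbp genes on chromosome 3. Another is Psmb9, Tap1 and Psmb8 on chromosome 17. The same count was not made for other genes, so it does not set the list apart from them.

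In control synovium the basal level of the list differed by class. Levels are given as CPM, the UMIs of a gene or list per 1000000 UMIs of the class. Endothelial-like cells held 4744 CPM over the 41 genes (4697 to 4791), macrophage or monocyte-like cells 3651 (3618 to 3683), mural-like cells 2862 (2778 to 2948), T or NK-like cells 2152 (2020 to 2291), cluster 12 2012 (1975 to 2049) and fibroblast-like cells 1066 (1057 to 1076). The intervals of T or NK-like cells and cluster 12 overlapped, and those of the other neighbours in this order did not. The order depended on a few abundant genes. Without Bst2, Ifi27l2a and Lgals3bp, endothelial-like cells held 3777 CPM, mural-like cells 2300 and T or NK-like cells 1642. Macrophage or monocyte-like cells then held 1255 CPM, cluster 12 1245 and fibroblast-like cells 634. In the 58 control mural-like cells low in endothelial and fibroblast markers the list was at 975 CPM in place of 2862. Classes with fewer than 50 control cells are given as levels alone: 29 adipocyte-like cells held 7092 CPM, of which a single gene, Ifi27l2a, made up 83.8%. The 20 neutrophil-like cells held 5306 CPM, of which Ifi27l2a made up 46.8%. Neutrophil markers summed to 17966 CPM in these control cells and to 226765 CPM in MMS neutrophil-like cells.

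The genes behind that level differed between classes. Ifi27l2a, which encodes a small membrane protein of mitochondria and the nuclear envelope, gave 56.4% of the list's UMIs in control macrophage or monocyte-like cells and 28.8% in fibroblast-like cells. In endothelial-like cells the most abundant gene, Bst2 (tetherin, which holds budding virus at the cell surface), gave 12.7%, followed by Iigp1 and Psmb8. Rsad2, which encodes viperin, an enzyme that blocks viral RNA synthesis, was at 293 CPM in control endothelial-like cells, 19.4 CPM in macrophage or monocyte-like cells and 1.61 CPM in fibroblast-like cells. Iigp1, a GTPase that attacks the vacuoles of intracellular parasites, was at 477, 8.92 and 34.5 CPM in the same order. These classes carried little of each other's RNA: the summed level of 8 endothelial markers in control fibroblast-like cells was 0.25% of that in endothelial-like cells, and 0.29% in macrophage or monocyte-like cells.

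**Figure D1:**
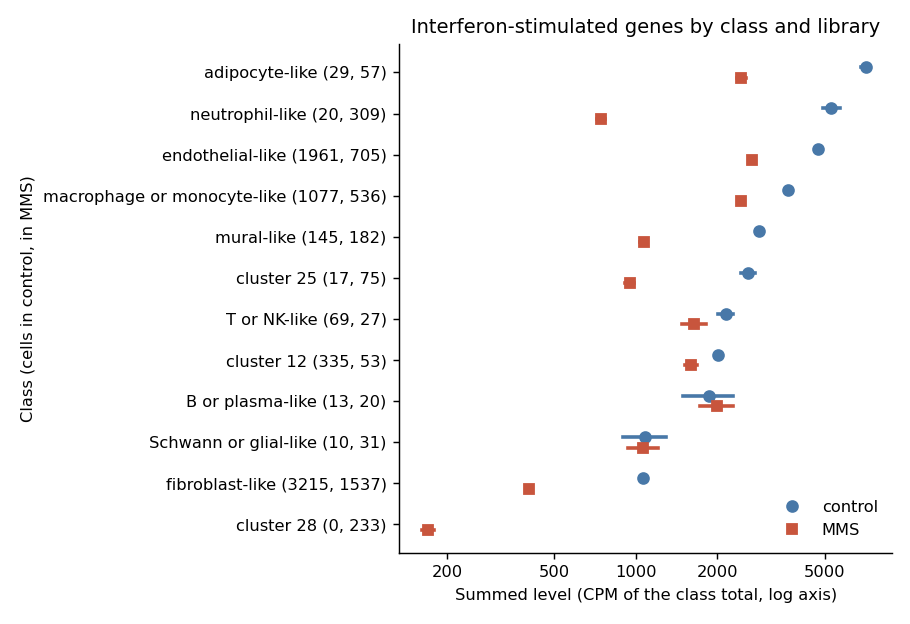
Summed level of the listed genes in each class of cells, in CPM of the class total on a log axis, for the control library (circles) and the MMS library (squares), with 95% intervals for counting error and the number of cells in each library after the class name. The intervals of the libraries overlap in B or plasma-like and Schwann or glial-like cells, the MMS point lies left of the control point in the other classes found in both libraries, and cluster 28, which had 0 control cells, is the lowest at 170 CPM.

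The list stood lower in MMS in each of the 4 main classes. In fibroblast-like cells its summed level was 1066 CPM in control and 404 CPM in MMS, a log2 ratio of −1.40 (−1.43 to −1.38), or −0.28 with the clusters of the class weighted equally. All 39 genes with at least 10 UMIs there were lower in MMS, where 44.4% of all genes tested were lower, and 22 of the 39 were at least 2-fold lower, against 9.77% of all genes. None was at least 2-fold higher (10.2% of all genes). The median log2 ratio of the 39 was −1.08, and that of all genes tested was 0.06. In endothelial-like cells the level was 4744 CPM in control and 2701 CPM in MMS, a log2 ratio of −0.81 (−0.84 to −0.79). Here 38 of 39 genes were lower (45.6% of all genes tested), 13 were at least 2-fold lower (4.82%) and 0 at least 2-fold higher (8.79%), with a median of −0.70 beside 0.04 for all genes.

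Macrophage or monocyte-like cells were at 3651 CPM in control and 2463 CPM in MMS (log2 ratio −0.57, −0.59 to −0.54). Of 40 genes there, 40 were lower in MMS (49.6% of all genes tested), 16 were at least 2-fold lower (4.59%) and 0 at least 2-fold higher (5.69%), with a median of −0.78 beside 0.00 for all genes. Ifi27l2a, which made up 56.4% of the sum in control and 57.5% in MMS, had a ratio nearer to 0 than the median of the list, with 2059 CPM in control and 1417 CPM in MMS. Mural-like cells were at 2862 CPM in control and 1070 CPM in MMS (log2 ratio −1.42, −1.48 to −1.36), with 37 of 39 genes lower (52% of all genes tested), 27 at least 2-fold lower (5.96%) and 1 at least 2-fold higher (8.71%); in the mural-like cells low in other markers the ratio was −0.35. In cluster 12 the list was closer to the other genes: 23 of 38 genes were lower (41.4% of all genes tested), 4 were at least 2-fold lower (5.48%) and 2 at least 2-fold higher (8.04%), and the median was −0.12 beside 0.10.

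Of 38 genes with at least 10 UMIs in all 4 main classes, 36 were lower in all of them, against 14.1% of 10959 genes tested. Dhx58, an RNA helicase that tunes RNA sensing, and Zbp1, a sensor of left-handed nucleic acids, were the exceptions. The ratio of Dhx58 was above 0 in endothelial-like cells (43 UMIs in each library, log2 ratio 0.37, −0.27 to 1.01) and in mural-like cells, where it rested on 2 control and 14 MMS UMIs. Zbp1 was above 0 in mural-like cells with 3 and 8 UMIs. At least 2-fold lower in all 4 classes were 6 genes, namely Ifit1, Ifit3, Ifit3b, Isg15, Irf7 and Oasl1, against 0.319% of all genes. In mural-like cells Oasl1 was rare, at 5.25 CPM in control, and the Ifit3 ratio changed sign at Leiden resolution 2. The mural-like class also carried RNA of other types, as described below.

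**Figure D2:**
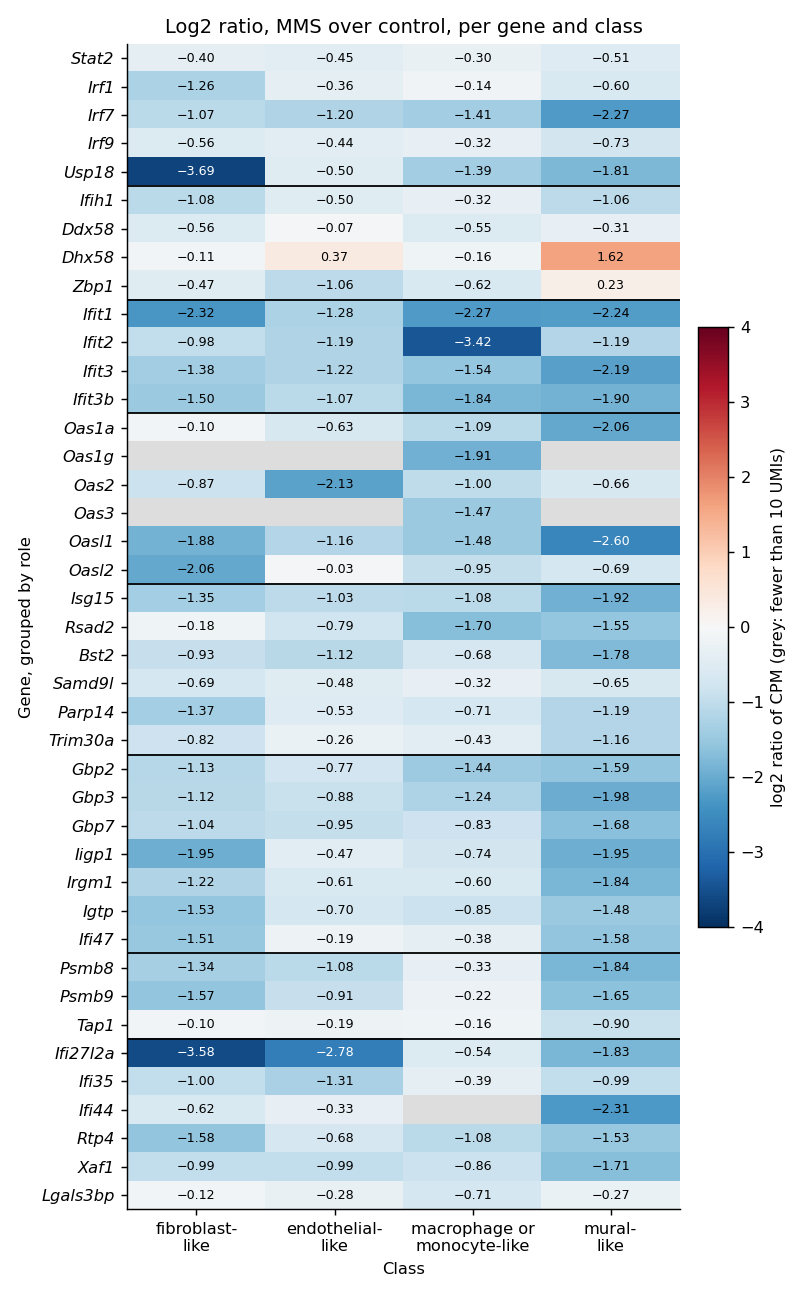
Log2 ratio of CPM, MMS over control, for each listed gene (rows, grouped by role and separated by black lines) in 4 classes of cells (columns), with the value printed in each tile. Blue tiles are lower in MMS, red tiles are higher, and grey tiles had fewer than 10 UMIs; 3 tiles are above 0, those of Dhx58 in endothelial-like and mural-like cells and of Zbp1 in mural-like cells.

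The counts by role below stand beside the shares of all genes tested that were lower in MMS, which were 44.4% in fibroblast-like, 45.6% in endothelial-like, 49.6% in macrophage or monocyte-like and 52% in mural-like cells. Among the regulators of the response, all 5 were lower in MMS in each of the 4 classes. Usp18 encodes a protease that removes ISG15 from its targets and dampens signalling from the type I receptor. It was at 20.9 CPM in control fibroblast-like cells and 1.62 CPM in MMS, a log2 ratio of −3.69 (−4.07 to −3.33) and the lowest of the list there. In endothelial-like cells its ratio was −0.50 (−0.93 to −0.08). Irf7, the factor that amplifies type I interferon production, was at 59.7 CPM and 12.4 CPM in mural-like cells, a log2 ratio of −2.27 (−2.83 to −1.73), and at 57.1 and 24.9 CPM in endothelial-like cells. Irf1, a transcription factor induced by interferon gamma, was at 75.3 CPM in control fibroblast-like cells and 31.5 CPM in MMS (log2 ratio −1.26, −1.35 to −1.17), but with clusters weighted equally the ratio was 0.38. In mural-like cells the ratio of Irf1 was −0.60, and 1.77 in the cells low in other markers. In macrophage or monocyte-like cells Irf1 was at 99.1 and 89.9 CPM (−0.14, −0.27 to −0.01), among the ratios nearest to 0. Irf9 and Stat2, which belong to the ISRE-binding complex, had ratios of −0.32 to −0.73 and −0.30 to −0.51 over the 4 classes.

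The median log2 ratio of the 4 nucleic acid sensors was −0.52 in fibroblast-like, −0.28 in endothelial-like and −0.43 in macrophage or monocyte-like cells, and in mural-like cells 2 of the 4 were lower. Ddx58 (RIG-I), which recognises viral RNA ends, was at 61.3 CPM in control endothelial-like cells and 58.5 CPM in MMS, a log2 ratio of −0.07 (−0.26 to 0.13). Its interval included 0 in mural-like cells too (−0.31, −0.81 to 0.20), while in fibroblast-like cells it was at 21.7 and 14.7 CPM (−0.56). Ifih1 (MDA5), which recognises long double-stranded RNA, was at 17.7 and 8.34 CPM in fibroblast-like cells (−1.08, −1.27 to −0.90).

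The IFIT family, whose proteins bind foreign RNA and block its translation, was the role with the lowest median ratio in each of the 4 classes. All 4 genes were lower in each class, with median log2 ratios of −1.44 in fibroblast-like, −1.20 in endothelial-like, −2.06 in macrophage or monocyte-like and −2.04 in mural-like cells. Ifit1 was at 11.1 CPM in control and 2.22 CPM in MMS in fibroblast-like cells (−2.32, −2.66 to −2), and at 59.5 and 24.6 CPM in endothelial-like cells (−1.28, −1.54 to −1.01). Ifit2 in macrophage or monocyte-like cells was at 9.29 CPM in control and 0.87 CPM in MMS (−3.42, −4.76 to −2.33), but these levels rest on 125 and 7 UMIs, and 89 of the 125 lay in 5 cells. Transcript ends of Ifit3 are partly shared with its near copy Ifit3b (12.1% of the windows compared), so UMIs of these genes may be split between them or left out.

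Some members of the OAS family make the signal that activates RNase L, which degrades RNA. All measured members of the family were lower in each of the 4 classes, where 44.4% to 52% of all genes tested were lower. These were 4 of 4 in fibroblast-like, endothelial-like and mural-like cells and 6 of 6 in macrophage or monocyte-like cells. In the last class Oas1g and Oas3 also passed the minimum of 10 UMIs. Over all kept cells, other classes included, Oas3 was higher in MMS (1.37 CPM in control, 1.64 CPM in MMS). Oas2 was at 7.51 CPM in control and 1.72 CPM in MMS in endothelial-like cells (−2.13, −3.20 to −1.19). Oasl2 was lower in fibroblast-like cells (8.34 and 2.01 CPM, −2.06, −2.42 to −1.71) and level in endothelial-like cells (28.8 and 28.2 CPM, −0.03, −0.32 to 0.25). Oas1a was at 24.9 and 11.7 CPM in macrophage or monocyte-like cells (−1.09, −1.44 to −0.76), and in fibroblast-like cells, where it was rare, at 1.42 and 1.33 CPM (−0.10, −0.64 to 0.44). Oas1g in macrophage or monocyte-like cells rested on 63 and 10 UMIs (−1.91), and 49.9% of the windows at the Oas1a transcript ends occur in Oas1g as well.

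The other antiviral effectors were lower in all 4 classes, 6 of 6 in each (44.4% to 52% of all genes tested). Bst2 was at 602 CPM in control endothelial-like cells and 277 CPM in MMS (−1.12, −1.20 to −1.04), at 248 and 155 CPM in macrophage or monocyte-like cells and at 78.1 and 40.8 CPM in fibroblast-like cells. Isg15, a ubiquitin-like protein attached to other proteins, had ratios of −1.35, −1.03, −1.08 and −1.92 in fibroblast-like, endothelial-like, macrophage or monocyte-like and mural-like cells. Rsad2 was at 293 and 169 CPM in endothelial-like cells (−0.79, −0.89 to −0.69) and at 19.4 and 5.97 CPM in macrophage or monocyte-like cells (−1.70, −2.18 to −1.25), where 118 of the 261 control UMIs lay in 5 cells. Samd9l, a restriction factor that halts translation, had ratios of −0.32 to −0.69.

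The interferon-inducible GTPases, which attack the vacuoles of intracellular pathogens, were at least 2-fold lower in MMS in 7 of 7 cases in fibroblast-like cells (9.77% of all genes tested) and mural-like cells (5.96%), in 2 of 7 in macrophage or monocyte-like cells (4.59%) and in 0 of 7 in endothelial-like cells (4.82%), where all 7 were lower. Iigp1 was at 34.5 CPM in control fibroblast-like cells and 8.94 CPM in MMS (−1.95, −2.11 to −1.78), but with clusters weighted equally its ratio was 0.72. In endothelial-like cells it was at 477 and 345 CPM (−0.47, −0.54 to −0.39). Gbp7 was at 255 and 132 CPM in endothelial-like cells (−0.95) and at 23 and 11.2 CPM in fibroblast-like cells (−1.04). Gbp3 in mural-like cells was at 52.5 and 13.3 CPM (−1.98, −2.54 to −1.44). The mural-like class also carried endothelial markers, at 41.7% of the endothelial-like level in control and 26.4% in MMS. Among mural-like cells low in endothelial and fibroblast markers, 6 of 26 listed genes were at least 2-fold lower (9.24% of all genes tested).

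The 3 antigen processing genes split by class. Psmb8, an immunoproteasome subunit, was at 71.1 CPM in control fibroblast-like cells and 28.2 CPM in MMS (−1.34, −1.43 to −1.24) and at 395 and 187 CPM in endothelial-like cells (−1.08, −1.18 to −0.99). Its level in macrophage or monocyte-like cells was 170 and 135 CPM (−0.33, −0.43 to −0.22). Psmb9 had ratios of −1.57, −0.91 and −0.22 in the same order. Tap1, which pumps peptides into the endoplasmic reticulum and whose promoter window overlaps that of Psmb9, was near level in fibroblast-like cells, at 13.9 and 12.9 CPM (−0.10, −0.27 to 0.06). In cluster 12 all 3 genes had ratios above 0, with Tap1 at 64.7 and 94.9 CPM (0.55, 0.21 to 0.89).

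Of the remaining genes, Ifi27l2a had the widest range of ratios. It was at 307 CPM in control fibroblast-like cells and 25.7 CPM in MMS (−3.58, −3.67 to −3.49), at 288 and 42.1 CPM in endothelial-like cells (−2.78, −2.96 to −2.59), and at 2059 and 1417 CPM in macrophage or monocyte-like cells (−0.54, −0.57 to −0.51). Without Ifi27l2a, the ratio of the sum was −1.01 in fibroblast-like, −0.74 in endothelial-like and −0.61 in macrophage or monocyte-like cells. Ifi35, a modulator of innate signalling, was at 153 and 61.7 CPM in endothelial-like cells (−1.31, −1.47 to −1.14). Lgals3bp, a secreted glycoprotein that binds galectins, was near level in fibroblast-like cells (47.2 and 43.4 CPM, −0.12) and lower in macrophage or monocyte-like cells (88 and 53.7 CPM, −0.71).

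Of the 10 interferon genes searched for, Ifng (interferon gamma, a product of T and NK cells) was found in T or NK-like cells, with 75 UMIs in 12 of 69 control cells and 9 UMIs in 4 of 27 MMS cells. The 4 main classes held few: 1 UMI of Ifng lay in MMS fibroblast-like cells and 1 UMI of Ifnk in control macrophage or monocyte-like cells. Control cluster 12 held 1 UMI of Ifnb1, and no other class held a UMI of these genes. Of 41 pathway genes that are not on the list, these interferons included, 27 had at least 10 UMIs in fibroblast-like cells. Of the 27, 20 were lower in MMS (44.4% of all genes tested), 2 at least 2-fold lower (9.77%) and 1 at least 2-fold higher (10.2%). Ifngr1, a chain of the interferon gamma receptor, was at 201 CPM in control and 67.6 CPM in MMS (−1.57). Socs1, which shuts JAK kinases down, was at 60.2 and 28.4 CPM (−1.08). Irf8, a factor of myeloid cells, was at 0.941 and 1.91 CPM on 45 and 79 UMIs (1.02). In endothelial-like cells 13 of 26 were lower (45.6%), 0 at least 2-fold lower (4.82%) and 2 at least 2-fold higher (8.79%). Tmem173 (STING), which relays the sensing of DNA, was at 38.7 and 78.4 CPM (1.02), and the other was Irf5 on 4 and 7 UMIs. In macrophage or monocyte-like cells 13 of 29 were lower (49.6%) and in mural-like cells 15 of 25 (52%), and none of these differed by 2-fold.

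Cells of a class were not made up alike in both libraries, and within clusters the difference was smaller in several cases. Clusters 4, 6, 7, 9 and 13 held 737, 387, 325, 244 and 609 control fibroblast-like cells, but 17, 2, 10, 19 and 11 MMS cells, and their control levels of the list lay between 1037 and 1414 CPM. MMS fibroblast-like cells were mainly in cluster 18, led by the lining gene Prg4 (273 control and 539 MMS cells), and cluster 23, led by Mmp13 (43 and 621 cells), where control levels were 630 and 472 CPM. In clusters with at least 50 cells of each library, the median ratio of the list was −1.03 in cluster 18 (35 of 36 genes lower, against 58.9% of all genes tested), −0.39 in cluster 8 (19 of 29, 40.8%), −0.17 in cluster 2 (15 of 24, 45.1%) and −0.12 in cluster 5 (23 of 36, 44.8%). With these 4 clusters weighted equally, the ratio of the summed list in fibroblast-like cells was −0.28 in place of −1.40, and 5 genes in place of 22 were at least 2-fold lower. Cluster makeup and a change within cells cannot be told apart for the fibroblast clusters that nearly all lie in 1 library.

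Single genes showed the same dependence on the cluster. Iigp1 in fibroblast-like cells came mostly from cluster 6, at 189 CPM in control with 2 MMS cells, and in cluster 5 it was higher in MMS, at 31.5 CPM in control and 85.2 CPM in MMS (log2 ratio 1.44). Cluster 6 was not among the clusters weighted equally, which needed at least 50 cells of each library. Over those clusters the ratio of Iigp1 in fibroblast-like cells was 0.72 and that of Irf1 was 0.38. Of 1001 control fibroblast-like UMIs of Usp18, 435 lay in cluster 13, at 59.6 CPM, and 11 MMS cells were in that cluster. In cluster 5 Usp18 was at 11.1 and 7.8 CPM (−0.51).

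The makeup of the other classes differed between the libraries too. Cluster 1 held 811 control and 76 MMS endothelial-like cells, cluster 3 held 29 and 130, and cluster 17 held 63 control and 272 MMS macrophage or monocyte-like cells. In endothelial-like cells the median ratio was −0.89 in cluster 19 (38 of 39 genes lower, 44.7% of all genes tested), −0.56 in cluster 0 (31 of 38, 50.2%), −0.41 in cluster 24 (28 of 36, 44.8%) and −0.02 in cluster 1 (21 of 38, 50.6%). Rsad2 was higher in MMS in cluster 1 (255 and 377 CPM, 0.57) and lower in cluster 19 (352 and 193 CPM, −0.87). In macrophage or monocyte-like cells the median ratio was −1.01 in cluster 17 (34 of 37, 49.7%), −0.45 in cluster 14 (38 of 39, 48.3%) and −0.43 in cluster 15 (31 of 40, 51.5%). Irf1 was higher in MMS in cluster 14 (26.4 and 50 CPM, 0.92) and lower in cluster 15 (172 and 103 CPM, −0.74). Clusters with at least 50 cells of each library were then weighted equally. The ratio of the sum was then −0.56 in endothelial-like and −0.44 in macrophage or monocyte-like cells.

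**Figure D3:**
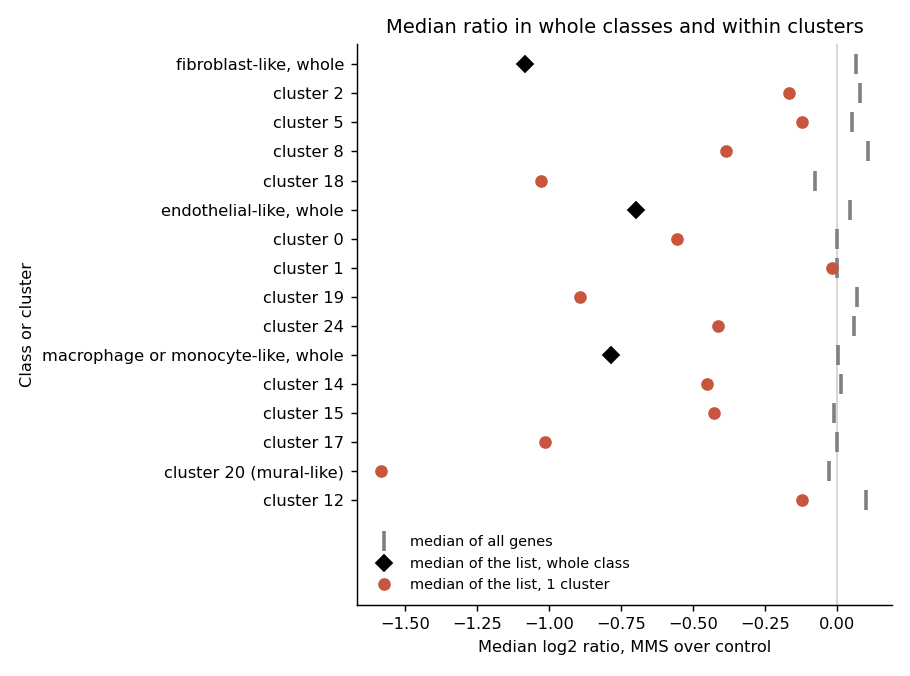
Median log2 ratio, MMS over control, of the listed genes in whole classes (black diamonds) and in single clusters with at least 50 cells of each library (red circles), beside the median of all genes tested there (grey bars). In fibroblast-like cells, clusters 2, 5 and 8 sit between −0.39 and −0.12 while the whole class sits at −1.08; cluster 18 is at −1.03.

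Cells of like depth were compared because the libraries differed in depth. Over 9 bins of UMIs per cell with at least 20 cells of each library, the ratio of the sum in fibroblast-like cells was −0.86 over the bins together and ranged from −1.47 to −0.59 between them, with 34 of 39 genes lower. The matched ratio was −0.59 in endothelial-like cells (8 bins, 34 of 39 genes lower) and −0.64 in macrophage or monocyte-like cells (5 bins, 39 of 40). Mural-like cells allowed 2 bins, with a ratio of −0.85. The share of all genes lower in these bins was not computed, so the counts of lower genes here have nothing to stand beside.

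The mural-like class carried RNA of other types to a larger extent. All 8 endothelial markers were found in it, at a summed level of 41.7% of that of endothelial-like cells in control and 26.4% in MMS, and 8 of 8 fibroblast markers at 7.76% and 19.9% of the fibroblast-like level. Prg4, the lubricin gene of the joint lining, was at 1150 CPM there in control and 22835 CPM in MMS. In the 58 control and 74 MMS cells low in both kinds of marker, the list was at 975 and 765 CPM, a log2 ratio of −0.35 (−0.54 to −0.16), with 20 of 26 genes lower (52.3% of all genes tested), 6 at least 2-fold lower (9.24%) and a median of −0.44. The other mural-like cells, 87 and 108, were at 3422 and 1174 CPM. In the marker-low cells the log2 ratio of Ifit2 was 0.65, while in all mural-like cells it was −1.19.

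To compare cells of unequal depth, each cell with at least 2000 UMIs was thinned at random to 2000. Shallower cells were left out, namely 396 of 1961 control and 62 of 705 MMS endothelial-like cells, 42 and 107 fibroblast-like, 22 and 14 macrophage or monocyte-like, and 7 and 5 mural-like cells. The mean number of listed UMIs in a fibroblast-like cell was then 2.26 in control and 0.95 in MMS. The 10th, 50th and 90th percentiles were 0, 2 and 5 UMIs in control and 0, 1 and 2 in MMS, with the lowest of them at 0 in both libraries. In endothelial-like cells the 10th, 50th and 90th percentiles were 4, 8 and 18 UMIs in control and 1, 5 and 12 in MMS. They were 2, 6 and 13 in control and 1, 4 and 10 in MMS macrophage or monocyte-like cells, and in mural-like cells 1, 4 and 9 in control and 0, 2 and 5 in MMS. At least 1 listed UMI was found in 81% of control fibroblast-like cells (79.6 to 82.3) and 53.6% of MMS cells (51 to 56.2), in 99.7% and 97% of endothelial-like cells and in 98% and 91.4% of macrophage or monocyte-like cells. In the last class a single gene, Ifi27l2a, was found in 85.9% of control and 62.5% of MMS cells. UMIs of 5 or more different listed genes were found in 70.4% of control and 44.2% of MMS endothelial-like cells, and in 4% and 0.979% of fibroblast-like cells.

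**Figure D4:**
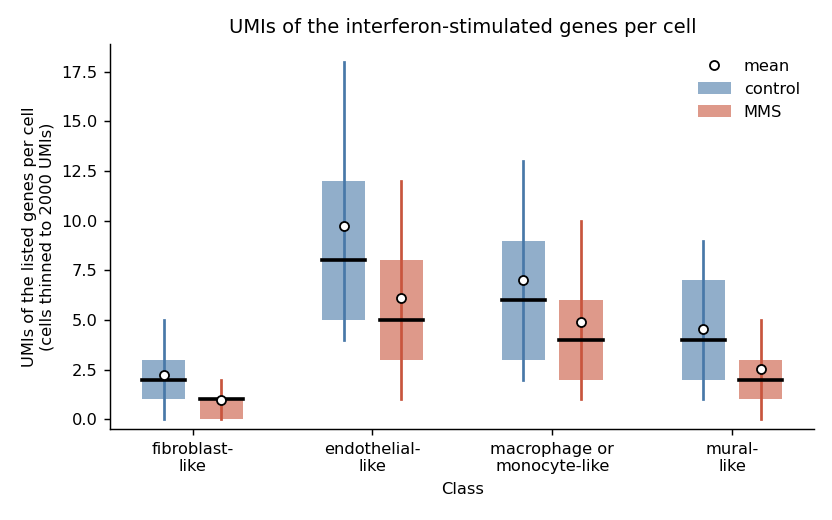
UMIs of the listed genes per cell after thinning each cell with at least 2000 UMIs to that number, in 4 classes, for control and MMS; boxes span the 25th to the 75th percentile, lines the 10th to the 90th, black bars mark the median and circles the mean over cells. The median is lower in MMS in each class: 2 and 1 in fibroblast-like, 8 and 5 in endothelial-like, 6 and 4 in macrophage or monocyte-like, and 4 and 2 in mural-like cells.

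Ifi27l2a was seen in 28.7% of thinned control fibroblast-like cells (27.1 to 30.3) and 4.27% of MMS cells (3.28 to 5.45), in 35.7% and 6.38% of endothelial-like cells, and in 85.9% and 62.5% of macrophage or monocyte-like cells. Rsad2 was seen in 36.1% and 26.3% of endothelial-like cells and in 0.158% and 0.28% of fibroblast-like cells, at the same number of UMIs per cell. No difference is read from fibroblast-like shares this low. Before thinning, Rsad2 was seen in 44 of 3215 control and 23 of 1537 MMS fibroblast-like cells, and 35 of the 59 MMS UMIs lay in 5 cells. The share that free RNA would give was not measured.

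Most of the listed genes compared lay in fewer cells than an even spread over the class would give. If every cell of a class had the class level at its own depth, the share of cells with a UMI could be computed, and the observed share was divided by it. Over all genes with an expected share of 2% to 50% the median of this ratio was 0.96 in control fibroblast-like and 0.97 in endothelial-like and macrophage or monocyte-like cells, and over the listed genes it was 0.87, 0.87 and 0.80. Below the median of all genes lay 31 of 32, 28 of 28 and 30 of 30 listed genes in these classes. The range leaves out the most abundant listed genes, among them Bst2 and Ifi27l2a. The lowest value in fibroblast-like cells was that of Iigp1 (12.9% of cells observed, 38.4% expected), followed by Ifit1 (6.28% and 15%). In macrophage or monocyte-like cells Ifit2 was found in 2.32% of cells where 10.9% were expected, Ifit3 in 5.57% (17%), Ifit1 in 7.15% (19.8%) and Rsad2 in 8.82% (21.1%). Ifi35 and Tap1 were close to even in the same cells, at 33.8% (35%) and 28.5% (30%). For MMS fibroblast-like, endothelial-like and macrophage or monocyte-like cells the medians over the listed genes were 0.87, 0.85 and 0.90, beside 0.96 for all genes.

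The UMIs of the uneven genes were not concentrated alike. The 1650 control fibroblast-like UMIs of Iigp1 lay in 415 cells, with 11.7% of them in 5 cells. In control macrophage or monocyte-like cells, 5 cells held 52.5% of the 204 Ifit3 UMIs, 46.3% of the 242 Ifit1 UMIs and 45.2% of the 261 Rsad2 UMIs. Thinned control cells of this class with a UMI of the Ifit genes or Rsad2 (60 of 1055) held 14 UMIs of the other listed genes on average, against 6.44 in cells of the same clusters without one, and in fibroblast-like cells (146 of 3173) 3.82 against 2.24. In endothelial-like cells, where such UMIs were common (694 of 1565 cells), the values were 10.3 and 7.77. The 5% of control cells with the most listed UMIs held 22% of them in fibroblast-like cells, 16.5% in endothelial-like cells and 17.3% in macrophage or monocyte-like cells; under a Poisson spread around one class mean they would hold 12.8%, 8.55% and 9.26%. In MMS the shares were 27% (17.8% under a Poisson spread), 18.4% (9.61%) and 22.4% (10.2%).

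**Figure D5:**
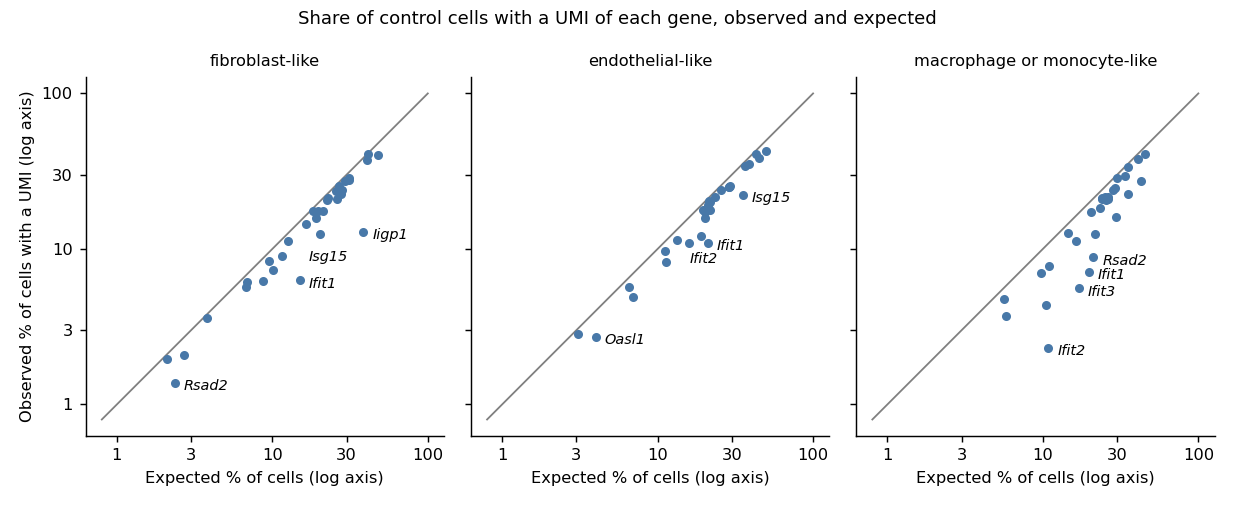
Share of control cells with a UMI of each listed gene (vertical, log axis) against the share expected if all cells of the class had the same level (horizontal, log axis), in 3 classes; the grey line marks equality and the 4 genes with the lowest ratio are named. Most genes lie just under the line, and Iigp1 in fibroblast-like cells and Ifit2, Ifit3, Ifit1 and Rsad2 in macrophage or monocyte-like cells lie furthest below it.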

How the data were processed

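The deposited values are UMI counts: whole numbers per gene and cell barcode, with no normalization, per the file headers. Those headers give Cell Ranger 5.0.0 as the software, whereas the submitters' processing notes list version 2.0.0 of it and mm10; its options were not known here. The control matrix held 8810 barcodes and 84900876 UMIs, the MMS matrix 5286 and 85597195, and no barcode had fewer than 500 UMIs.

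Barcodes under 1000 UMIs, under 500 genes or over 10% mitochondrial UMIs were dropped, and scrublet in scanpy 1.11.5 removed 184 control and 106 MMS doublets. Both libraries were clustered together without integration (2000 variable genes, from which 21 listed or pathway genes were removed, 30 principal components, 15 neighbours, Leiden resolution 1), and clusters were named from marker lists. UMIs were summed per class and library. Ratios are of CPM of the class total, with exact conditional binomial 95% intervals; shares have exact Clopper-Pearson intervals. UMIs do not stand for independent knees, so intervals and floors cover counting error only. A library at 0 took a floor of 3 UMIs. Genes entered a comparison with at least 10 UMIs in the class over both libraries, and "at least 2-fold" is a fold, not a test. The ratio and thinning steps were tested on simulated data. Alternatives changed the cell filters, doublet removal, clustering, scaling, minimum counts, near-identical copies, thinning depth and bin width; the closing section gives their effect.

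The members and gene lists were chosen with earlier results of these data known. Full values were given for the 2 genes of each role with the most UMIs, and, in each class, for the 4 lowest and 2 highest ratios among genes with at least 50 UMIs; pathway genes were named with at least 50 UMIs and a 2-fold difference, and Zbp1 and others outside this rule were chosen after their values were seen. Gene positions come from GENCODE M21 (GRCm38, named mm10 elsewhere) and promoter sequences from RefSeq (GRCm38.p6).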

Additional observations from a re-analysis of the deposited data

How the results depend on the processing

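No paired analysis was possible because each group is 1 library. Over 1145 values of named genes under alternatives, 1105 lay below 0. These values are 75 reported ratios computed again from the same libraries, so they are not independent of one another. Some of the genes were named because their ratios were the lowest or highest in a class. No share of all genes below 0 under these alternatives is given, so the count of 1105 has nothing to stand beside. The sign of every summed or median ratio stayed negative under each setting run, while sizes moved. The ratio of the sum in fibroblast-like cells was −1.43, −1.37, −1.35 and −1.44 with a minimum of 500 or 2000 UMIs per barcode and a mitochondrial limit of 5% or 20%, −1.44 at Leiden resolution 2 and −1.44 with the listed genes left among the variable genes. With each cell given equal weight it was −1.28 (median −0.87), with centring on all genes −1.46, with cluster 28 −1.54 and without Ifi27l2a −1.01. With clusters weighted equally it was −0.28 (median −0.29, 5 genes at least 2-fold lower). In endothelial-like cells it was −0.90 at the 5% mitochondrial limit, −0.67 with equal cells (7 genes at least 2-fold lower), −0.85 with centring, −0.74 without Ifi27l2a, −0.75 with the class total without mitochondrial and ribosomal protein UMIs, and −0.56 with equal clusters (7 genes at least 2-fold lower). For macrophage or monocyte-like cells it was −0.48 and −0.47 with a minimum of 500 or 2000 UMIs, −0.47 and −0.53 at mitochondrial limits of 5% and 20%, −0.46 at resolution 2, −0.52 with doublets kept, −0.61 without Ifi27l2a, −0.44 with equal clusters and −0.42 with cluster 12. In mural-like cells it was −1.27 at the 5% mitochondrial limit, −0.89 with equal cells (median −0.92), −0.75 at resolution 2 (median −0.67, 22 of 31 genes lower, 13 at least 2-fold) and −0.35 in the cells low in other markers (median −0.44, 20 of 26 lower, 6 at least 2-fold). The cause was not tested.

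Of the 1145 values of named genes, 25 had the other sign than the value reported. Those that did so from a ratio of at least 2-fold were of Iigp1 (0.72) and Irf1 (0.38) in fibroblast-like cells with equal clusters, and of Ifit2 (0.013 at resolution 2, 0.65 in the marker-low cells) and Ifit3 (0.86 at resolution 2) in mural-like cells. The others started nearer to 0, among them Irf1 in mural-like cells (−0.60 as reported, 0.78 at resolution 2, 0.21 with equal cells and 1.77 in the marker-low cells). The share of listed UMIs in the top cells, control and MMS, moved with thinning and with the share of cells taken. At 1000 UMIs it was 24.7% and 30.1% in fibroblast-like, 17.3% in control endothelial-like, 24.8% in MMS macrophage or monocyte-like, and 19.8% and 25.8% in mural-like cells. At 4000 UMIs it was 19.9% and 24.5% in fibroblast-like and 16.5% in control macrophage or monocyte-like cells. Taking the top 10% of cells gave 34.2% and 41.7% in fibroblast-like, 26.8% and 29% in endothelial-like, 28.1% and 34.1% in macrophage or monocyte-like, and 27.1% and 32.8% in mural-like cells. With bins of 0.25 the depth-matched ratio in fibroblast-like cells was −0.83. Mural-like cells could not be compared with bins of 0.25 or with equal clusters. Weighting clusters equally, the cells low in other markers, the added class limits and the sum without Ifi27l2a were chosen after seeing the data.

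With 1 library per group, differences between animals, digestion and capture cannot be told apart from MMS.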
